A study of Mus musculus with 12 samples.

Results

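The heme and iron handling genes described here are 10 mouse genes, Hmox1, Hpx, Trf, Tfrc, Slc11a1, Slc11a2, Fth1, Ftl1, Slc40a1 and Cp, chosen by name. All 10 symbols matched a gene identifier in both count tables, which list 35697 identifiers for the sham and TBI mice and 55637 for the vehicle and zileuton mice. All 10 also had enough counts to be tested in both comparisons, among 19536 and 17363 genes tested. The study used adult male wild-type C57BL/6J mice and controlled cortical impact (CCI), in which a piston strikes the exposed cortex, to model traumatic brain injury (TBI). In the batch of 2018, 3 sham mice, which underwent the surgery without the impact, were compared with 3 TBI mice at 7 days after injury. In the batch of 2022, 3 injured mice were compared with 3 injured mice given zileuton, an inhibitor of 5-lipoxygenase, by intraperitoneal injection at 10 mg/kg per day in corn oil. The labels call the first of these groups only TBI. The study describes them as vehicle-treated, and they are called vehicle here. In the source labels the zileuton mice stand at 7, 8 and 9 days after injury, but all 3 library names say 7. The tissue is brain in the labels and the rim of the contusion in the study's text.

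Cells acquire iron mainly as transferrin taken up through its receptor, pass it across membranes with divalent metal transporters, store the surplus inside ferritin shells, and release it through ferroportin. Bleeding in injured tissue frees hemoglobin and heme, which phagocytes take up and heme oxygenase degrades, setting the iron free. Several of these mRNAs carry an iron-responsive element (IRE), a short hairpin bound by iron regulatory proteins when iron is scarce. At the start of a ferritin or ferroportin mRNA the bound hairpin blocks translation, and at the end of the transferrin receptor mRNA it protects the transcript from decay.

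The IRE sequences are shown because the place of the element in an mRNA bears on the way iron acts on it. Mouse transcripts of GENCODE M21 on GRCm38 were searched on the transcript strand alone for a C, 5 bases, the loop CAGTGN with a last base other than G, and 5 bases that pair with the first 5, with at most 1 G-T pair. An element of this form lay in an untranslated region of 4 of the 10 members, and of 49 of 21901 protein-coding genes (0.224%). The members were chosen as iron genes, so this share is a description. Hairpins of other forms were not searched for, so a member without a match may still carry an IRE. In the following sequences, written 5′ to 3′ as DNA, capitals mark the loop.
Fth1, 5′ UTR, chr19:9982732-9982760, plus strand: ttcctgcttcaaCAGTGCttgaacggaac
Ftl1, 5′ UTR, chr7:45459779-45459807, minus strand: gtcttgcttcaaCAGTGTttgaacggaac
Slc40a1, 5′ UTR, chr1:45925465-45925493, minus strand: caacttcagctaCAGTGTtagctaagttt
Tfrc, 3′ UTR, chr16:32631219-32631247, plus strand: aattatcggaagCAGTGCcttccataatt
Tfrc, 3′ UTR, chr16:32631598-32631626, plus strand: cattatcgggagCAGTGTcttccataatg
Tfrc, 3′ UTR, chr16:32631663-32631691, plus strand: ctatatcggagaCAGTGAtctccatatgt
Tfrc, 3′ UTR, chr16:32631710-32631738, plus strand: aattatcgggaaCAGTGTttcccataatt
The 3 genes with the element in the 5′ UTR had higher RNA levels after TBI, and Tfrc, with 4 elements in the 3′ UTR, had a lower one, as given below. Hmox1, Trf, Slc11a1 and Cp, in which the search found no element, also rose, and Hpx and Slc11a2 did not pass the threshold. Whether the place of the element bears on the change in RNA level was not tested. RNA levels do not show translation, which was not measured.

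The libraries held between 42929862 and 48684674 counts in the 2018 batch and between 27845562 and 35453257 in the 2022 batch. Gfap, an astrocyte gene that rises in injured brain, averaged 188 CPM (counts scaled to library size) in sham mice and 2482 in TBI mice, and the phagocyte gene Cd68 averaged 7.89 and 97.2, so both followed the labels. Neuronal markers were abundant in every library, with summed levels of 4285 to 7465 CPM. The libraries differed in choroid plexus, the secretory tissue of the ventricles. Its 7 markers, led by Ttr, summed to 1082 CPM in sham 1, 18.9 in sham 2 and 55.3 in sham 3, against 1164 to 1347 in the TBI mice. In the 2022 batch they summed to 11.2, 482 and 1066 CPM in vehicle A, B and C, and to 1489, 1294 and 14.9 in zileuton A, B and C. Sham 2, sham 3, vehicle A and zileuton C thus stood apart, and where leaving them out, or adding this level to the fit, ended the call of a member or of a gene that changed at least 2-fold, the value is given. The letters A to C name libraries in column order, because the numbers of those columns, which are the same in both groups, match no label.

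Levels of different genes can be compared as FPKM, in which the count is divided by transcript length and library size. In sham mice Fth1 was the most abundant member at 342 ± 7.63 FPKM (SD, n = 3), followed by Trf at 57.8 ± 4.75, Ftl1 at 44.5 ± 3.52, Tfrc at 23.8 ± 5.52, Slc11a2 at 7.39 ± 0.157, Hmox1 at 2.75 ± 0.635 and Cp at 1.07 ± 0.159. Slc11a1 at 0.593 ± 0.0969 and Slc40a1 at 0.592 ± 0.0324 overlapped, and Hpx was lowest at 0.211 ± 0.162. All other neighbours in this order were separate in these mice. The transcripts of Trf and Ftl1 share most of their sequence with other genes, as given below, which makes their places less sure, and in the 2022 batch Ftl1 stood above Trf. In TBI mice Fth1 remained first at 493 ± 21.4 FPKM. Trf at 197 ± 57.7 and Ftl1 at 163 ± 27.4 now overlapped. Hmox1, which ranked 6 in sham mice, ranked 4 at 38.3 ± 6.30 FPKM, ahead of Tfrc at 13.96 ± 0.654. Slc11a2 at 7.33 ± 0.356 and Slc11a1 at 6.45 ± 0.834 overlapped, as did Cp at 3.10 ± 0.695 and Slc40a1 at 2.14 ± 0.480, and Hpx was last at 0.413 ± 0.252.

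The first comparison asks how the injured brain tissue differed from sham brain tissue at 7 days. Of the 10 members, 7 rose and 1 fell at an adjusted p-value under 0.05 (edgeR's quasi-likelihood test with Benjamini-Hochberg adjustment over all genes tested). Among all genes tested 16.8% rose and 11.2% fell. The largest rises were those of Hmox1, which degrades heme, and Slc11a1, a phagocyte metal transporter. Ferritin light chain, ferroportin, transferrin and ceruloplasmin rose between 2.78- and 3.54-fold, and ferritin heavy chain 1.39-fold. Tfrc, the transferrin receptor, was the member that fell. The groups did not overlap for 8 of the 10 members, against 44.4% of all genes tested. The median log2 fold change was 1.59 over the members and 0.017 over all genes tested. In bulk tissue, a change in the number of cells of a type cannot be told apart from a change in RNA per cell.

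Hmox1 encodes the inducible heme oxygenase, which splits heme into biliverdin, carbon monoxide and iron. It measured 5.37, 5.72 and 3.60 CPM in sham 1, 2 and 3 and 62.4, 56.2 and 79.1 CPM in TBI 1, 2 and 3. The lowest TBI mouse was far above the highest sham mouse. The log2 fold change was 3.75 (SE 0.197, 13.5-fold, 95% interval 3.30 to 4.20 on the log2 scale, adjusted p = 8.68e-06), which ranked 228 among all genes tested in order of rise. Hpx encodes hemopexin, a plasma protein made mainly in liver that binds free heme. Its counts were 2, 24 and 19 in the sham mice and 27, 13 and 44 in the TBI mice. The groups overlapped, and the log2 difference of 0.91 had a 95% interval from -0.77 to 2.60 (adjusted p = 0.404). With so few counts, the interval for Hpx ran from lower to several-fold higher.

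Trf encodes transferrin, the iron carrier of plasma, which oligodendrocytes and choroid plexus make within the brain. It measured 182, 192 and 212 CPM in the sham mice and 540, 843 and 540 in the TBI mice. All TBI mice were above all sham mice, and TBI 2 was the highest. The log2 fold change was 1.71 (SE 0.172, 3.28-fold, adjusted p = 0.000161). With an equal-variance test on FPKM the adjusted p was 0.0651. Of 2472 stretches of 100 bases in the transcript examined, 77.3% also occur in the gene model Gm20425, which neither count table lists. Whether any reads of Trf were lost for that reason cannot be told from the counts.

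Tfrc encodes the transferrin receptor, which brings iron-loaded transferrin into cells and in the brain is prominent on capillaries and neurons. It measured 180, 111 and 159 CPM in the sham mice and 80.8, 85.9 and 87.7 in the TBI mice. The 3 TBI mice were close together, whereas the sham mice were spread over a wider range and did not reach down to them. The level fell by 0.82 on the log2 scale (SE 0.154, 1.77-fold lower, adjusted p = 0.00458). The adjusted p was 0.114 with the equal-variance test on FPKM. Endothelial markers summed to 86.4 to 119 CPM in sham mice and 123 to 188 in TBI mice, and neuronal markers to 6827 to 7465 and 4285 to 5377. At the adjusted threshold 4 of 6 endothelial markers rose and 4 of 7 neuronal markers fell, and their part in the result for Tfrc was not tested.

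Slc11a1 encodes a metal transporter of phagosome membranes in macrophages. It measured 2.44, 2.46 and 1.81 CPM in the sham mice and 22.8, 20.5 and 27.2 in the TBI mice. The ranges were far apart, and the log2 fold change was 3.39 (SE 0.173, 10.5-fold, adjusted p = 7.52e-06). Slc11a2, its relative, encodes the divalent metal transporter that moves iron out of endosomes in most cells. It measured 49.02, 46.6 and 47.8 CPM in the sham mice and 44.8, 43.5 and 48.97 in the TBI mice. These ranges overlapped, and the log2 difference of -0.06 had a 95% interval from -0.24 to 0.11 (adjusted p = 0.586).

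Fth1 encodes ferritin heavy chain, which carries the ferroxidase site, and Ftl1 the light chain, which supports the mineral core. Fth1 measured 1229, 1226 and 1175 CPM in the sham mice and 1756, 1662 and 1623 in the TBI mice. The groups were separate, and the log2 fold change was 0.47 (SE 0.0749, 1.39-fold, adjusted p = 0.00197). With sham 2 and sham 3 left out, which leaves sham 1 against the 3 TBI mice, its log2 fold change was 0.42 (adjusted p = 0.128). Ftl1 measured 58.0, 66.0 and 58.0 CPM in the sham mice and 212, 176 and 255 in the TBI mice. Its log2 fold change was 1.82 (SE 0.132, 3.54-fold, adjusted p = 3.00e-05), and no TBI mouse was near the sham mice.

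The ratio of Fth1 to Ftl1 counts was 21.2, 18.6 and 20.3 in sham 1, 2 and 3 and 8.27, 9.42 and 6.35 in TBI 1, 2 and 3. The light chain therefore rose more than the heavy chain in every TBI mouse. The ratio was 20.0 ± 1.33 (SD, n = 3) in sham and 8.01 ± 1.55 in TBI mice, a fall of 2.52-fold (two-sided exact permutation test, p = 0.1, the smallest p that 3 against 3 mice allow). The ratio of counts is not a ratio of molecules, because the transcripts differ in length and the light chain shares most of its sequence with other genes. In FPKM the ratio was 8.18, 7.17 and 7.82 in sham 1, 2 and 3 and 3.19, 3.64 and 2.45 in TBI 1, 2 and 3. Of 869 stretches of 100 bases in the Ftl1 transcript, 78.6% occur in at least 1 of 6 other genes, the pseudogene Ftl1-ps1 among them. For Fth1 the share was 0.573%. Counts assigned to listed light-chain copies summed to between 57 and 265 per library, at most 2.57% of the Ftl1 count, and adding them left the fall at 2.52-fold. Reads that match several copies may have been dropped before the counts were made, which the files do not show.

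Slc40a1 encodes ferroportin, the iron exporter of the cell membrane. It measured 5.68, 5.08 and 5.53 CPM in the sham mice and 23.8, 15.0 and 18.2 in the TBI mice. All TBI mice were above the sham mice, with a log2 fold change of 1.81 (SE 0.176, 3.49-fold, adjusted p = 0.000137). Cp encodes ceruloplasmin, the copper ferroxidase that oxidises exported iron and in the brain is made largely by astrocytes and choroid plexus. It measured 8.87, 11.9 and 10.6 CPM in the sham mice and 22.5, 34.7 and 29.9 in the TBI mice. Its log2 fold change was 1.48 (SE 0.173, 2.78-fold, adjusted p = 0.000399), with no overlap. With the choroid plexus level as a covariate, the log2 fold changes of Trf, Slc40a1 and Cp were 1.78, 1.73 and 1.73 with adjusted p-values of 0.00957, 0.0101 and 0.00699.

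**Figure D1:**
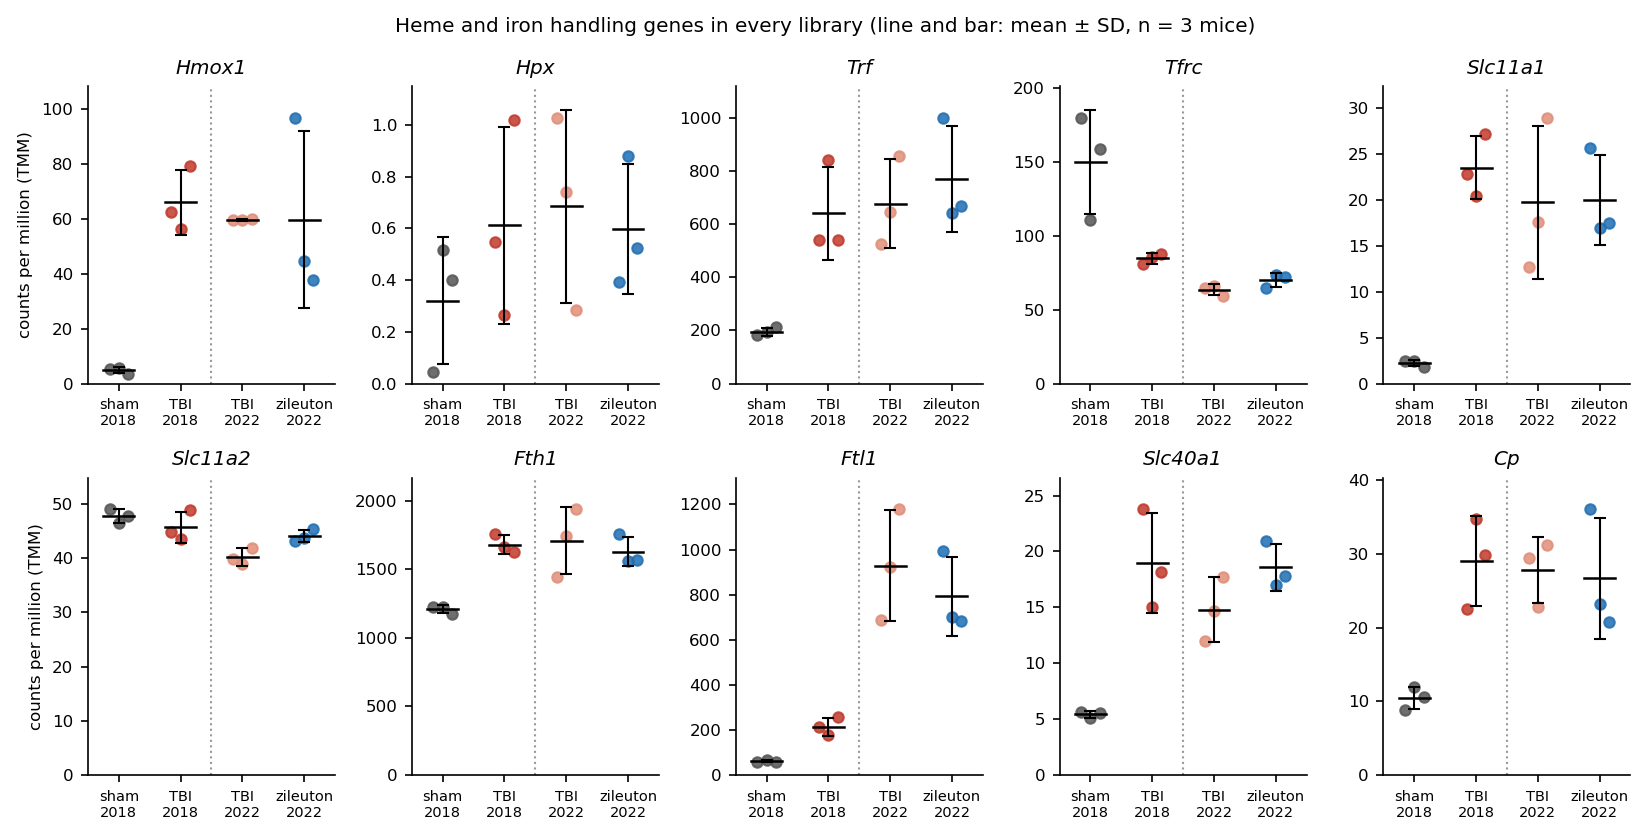
CPM (counts scaled to library size, TMM-normalised, linear axes from 0) of the 10 members in each of 12 libraries; points are mice, and lines with bars are means ± SD of 3 mice. The dotted line separates the batches of 2018 and 2022, which were counted in different ways and are not compared. TBI mice of 2018 lay above sham mice for Hmox1, Trf, Slc11a1, Fth1, Ftl1, Slc40a1 and Cp and below them for Tfrc, whereas vehicle and zileuton mice overlapped for 9 of the 10.

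Markers of several cell types moved with these genes. All 7 markers of homeostatic microglia rose, with sums of 285 to 333 CPM in sham and 817 to 1036 in TBI mice. All 7 of activated microglia and macrophages also rose, and these summed to 39.8 to 43.7 CPM in sham mice and 1114 to 2415 in TBI mice, with Spp1, Cd68 and Lgals3 the most abundant per length (FPKM) in TBI mice. All 6 monocyte markers rose, with sums of 3.39 to 3.84 CPM in sham and 27.4 to 53.7 in TBI mice. Of 8 neutrophil markers 4 could be tested and rose, S100a8 and S100a9 among them, whereas Ly6g was at 0 in every sham mouse and averaged 0.0601 CPM in TBI mice. Of 7 astrocyte markers 5 rose, with sums of 4579 to 5191 CPM in sham and 8259 to 8531 in TBI mice, and of 8 oligodendrocyte markers 4 rose. Oligodendrocyte markers, with Mbp and Mobp among the most abundant, summed to 5232 to 5826 CPM in sham mice and 9035, 10959 and 5990 in TBI 1, 2 and 3. TBI 2 had the highest sum and TBI 3 the lowest of the TBI mice. Of 6 fibroblast and meningeal genes 5 rose, Col1a1, Col3a1 and Col1a2 were the most abundant per length in TBI mice, and the list summed to 138 to 141 CPM in sham and 187 to 763 in TBI mice. Of 5 perivascular macrophage markers 3 rose, with sums of 13.1 to 16.2 CPM in sham and 22.0 to 52.8 in TBI mice. Of 5 red blood cell markers tested, 3 of the 4 globin genes fell. Slc4a1, the anion exchanger of red blood cells, had a log2 difference of 1.50 (adjusted p = 0.115). The whole list summed to 149 to 241 CPM in sham and 88.2 to 140 in TBI mice. The part of these cells in the members' changes was not tested.

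**Figure D2:**
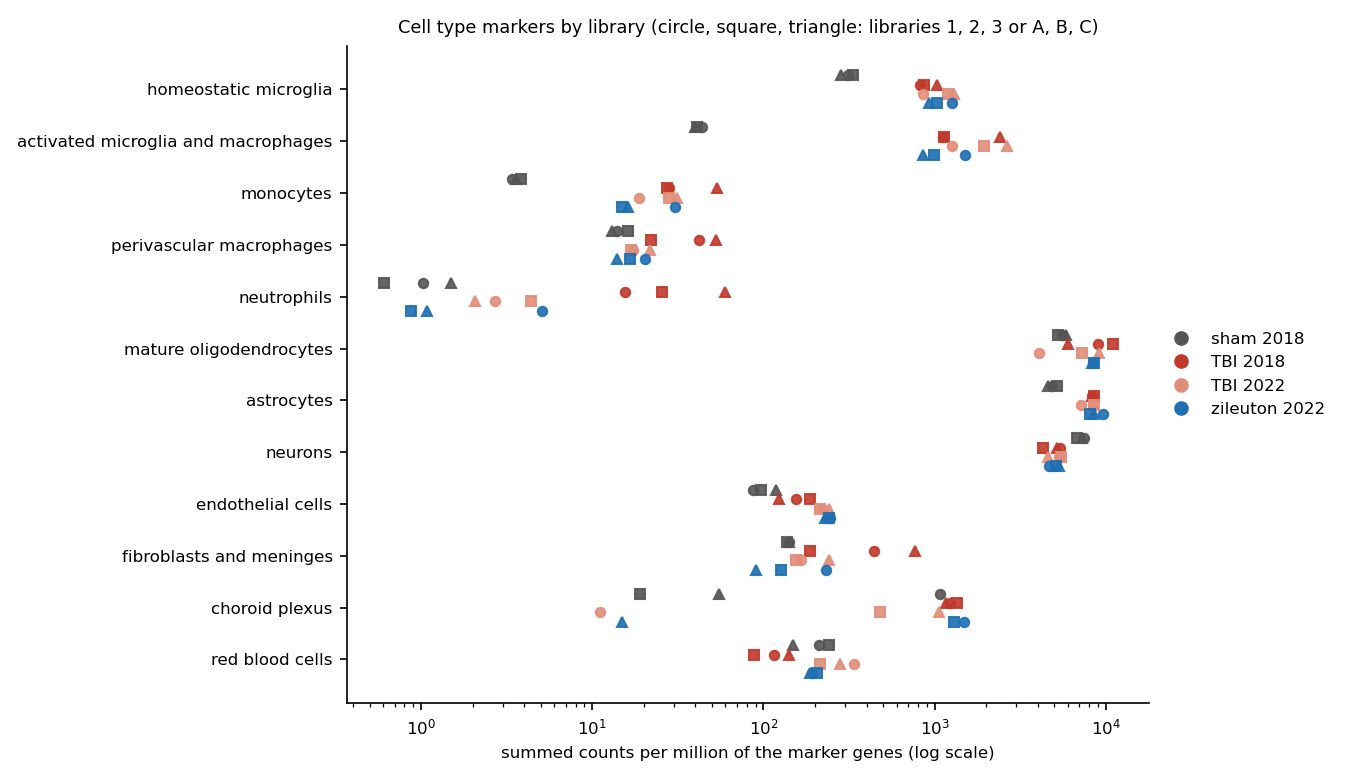
Summed CPM of the marker genes of 12 cell types (log axis) in every library; colours are groups and shapes are libraries. Phagocyte and monocyte sums were higher in TBI than in sham mice, and choroid plexus sums ranged from 11.2 to 1489 CPM with low values in sham 2, sham 3, vehicle A and zileuton C.

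The other genes of heme and iron metabolism were read from 7 lists with 69 genes. Of the 64 that could be tested, 15 rose (23.4%, against 16.8% of all genes) and 3 fell (4.69%, against 11.2%), with a median log2 fold change of 0.11. The 10 changes of at least 2-fold were 9 rises and 1 fall, and 6 of the rises lay in the list of iron uptake, reduction and chelation. That list also had the highest median, 1.33 over its 12 genes. Heme synthesis, with 9 genes tested, and ferritin assembly and turnover, with 6 of 8 tested, had no gene past the threshold. Their most abundant genes, Urod, which acts midway in heme synthesis, and Pcbp1, an iron chaperone that loads ferritin, had log2 differences of 0.11 and -0.0026.

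Among genes of iron uptake and reduction, Steap1, Steap3, Steap4 and Cybrd1 rose, and Steap2 did not pass (log2 difference 0.39, adjusted p = 0.146). The call of Steap1 was lost under several alternatives, as given below. Ferrireductases turn ferric into ferrous iron. Steap3, the ferrireductase of transferrin endosomes, measured 7.76, 8.60 and 7.70 CPM in sham and 19.6, 24.5 and 20.3 in TBI mice (log2 fold change 1.42, SE 0.124, adjusted p = 7.47e-05). Steap4 had a log2 fold change of 3.05 (SE 0.291, adjusted p = 0.000122). Cybrd1, a ferric reductase best known from the gut, measured 1.51, 1.77 and 2.02 CPM in sham and 9.36, 18.8 and 11.9 in TBI mice (log2 fold change 2.91, adjusted p = 0.000113). Slc39a8, which imports zinc, manganese and iron, rose with a log2 fold change of 1.42 (adjusted p = 0.000403). For Steap3, Steap4, Cybrd1 and Slc39a8 the TBI mice lay above the sham mice. With the equal-variance test on FPKM the adjusted p was 0.0596 for Steap4 and 0.0724 for Cybrd1.

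Steap1 had a log2 fold change of 2.44 (SE 0.730, adjusted p = 0.0359) but lost that call under several alternatives. It measured 1.29, 0.24 and 0.085 CPM in sham 1, 2 and 3 and 2.94, 3.67 and 2.09 in TBI mice. Sham 1, the sham mouse with choroid plexus markers, had the most. With the choroid plexus level as a covariate the log2 fold change of Steap1 was 1.19 (adjusted p = 0.274), and with sham 2 and 3 left out it was 1.14 (adjusted p = 0.183). Its adjusted p was 0.117 without sham 2, 0.0722 without sham 3, 0.0643 without TBI 1 and 0.0754 without TBI 2. In the 2022 batch it was likewise low in vehicle A and zileuton C, at 0.41 and 0.31 CPM, and between 1.03 and 2.03 in the other 4 libraries.

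Lcn2 encodes lipocalin-2, which binds bacterial iron carriers and is made by reactive astrocytes and neutrophils. It measured 0.44, 0.043 and 0.23 CPM in sham and 9.28, 45.3 and 24.4 in TBI mice. This was the largest change of the lists, with a log2 fold change of 6.77 (SE 0.738, adjusted p = 0.000257), and TBI mice differed several-fold among themselves. Hp encodes haptoglobin, which binds free hemoglobin. Its counts were 11, 12 and 6 in sham and 53, 142 and 231 in TBI mice (log2 fold change 3.88, SE 0.615, adjusted p = 0.00202). Neutrophil markers summed to 0.60 to 1.49 CPM in sham mice and 15.5, 25.6 and 59.8 in TBI 1, 2 and 3. Hp was likewise highest in TBI 3, whereas Lcn2 was highest in TBI 2. The part of neutrophils or astrocytes in either gene was not tested. With the equal-variance test on FPKM the adjusted p was 0.170 for Lcn2 and 0.178 for Hp, and Hp reached 0.0544 with the choroid plexus level as a covariate and 0.0986 with sham 2 and 3 left out.

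Of the 12 genes for heme and hemoglobin uptake, transport and breakdown, 4 rose and none of the tested genes fell. Besides Hp these were Blvrb, a biliverdin reductase that acts after heme oxygenase, at a log2 fold change of 0.83, Flvcr2 at 0.92 and Lrp1, the receptor of hemopexin-bound heme, at 0.27. Cd163, the macrophage receptor for hemoglobin bound to haptoglobin, had a log2 difference of 0.09 (adjusted p = 0.785), and Hmox2, the constitutive heme oxygenase, one of 0.12 (adjusted p = 0.288). The most abundant gene of the list was Pgrmc1, a heme-binding membrane protein, at a log2 difference of -0.27 (adjusted p = 0.0920).

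In the list of iron and heme sensing, 4 of 11 genes tested rose and 2 fell. Nfe2l2 encodes Nrf2, an activator of Hmox1 and of ferritin genes. It measured 14.3, 17.2 and 13.9 CPM in sham and 42.4, 47.2 and 56.7 in TBI mice (log2 fold change 1.69, SE 0.132, adjusted p = 4.24e-05). Bach1, a heme-sensing repressor of Hmox1, rose by 0.75 on the same scale (adjusted p = 0.000519). Hfe, a partner of the transferrin receptors, rose with a log2 fold change of 1.73 (adjusted p = 0.000100), and Bmp6, an inducer of hepcidin, by 0.84. Keap1, which holds Nrf2 in check and was the most abundant gene of this list, had a log2 difference of -0.11 (adjusted p = 0.287). Aco1 and Ireb2, which encode the iron regulatory proteins that bind the IREs shown above, had log2 differences of 0.21 (adjusted p = 0.0757) and -0.11 (adjusted p = 0.290). Fbxl5, which directs the degradation of one of them, fell by 0.24 on the log2 scale (adjusted p = 0.0442).

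Hamp, the hepcidin gene, had 0 counts in every sham and TBI library, which cannot be told apart from up to 3 counts per library. Erfe, a hormone that lowers hepcidin, was the gene that fell at least 2-fold, from counts of 39, 23 and 64 in sham to 4, 20 and 10 in TBI mice (log2 fold change -1.89, SE 0.597, adjusted p = 0.0438). Without sham 1, sham 3, TBI 1 or TBI 3 its adjusted p was 0.0996, 0.162, 0.0962 and 0.1004. For Erfe it was 0.164 with the choroid plexus covariate, 0.243 with sham 2 and 3 left out, 0.0864 with a replicate block and 0.0527 with library totals alone. In the export list App, the amyloid precursor protein, which has been linked to iron export, fell by 0.30 on the log2 scale (adjusted p = 0.0151), and its adjusted p was 0.0501 without sham 1, 0.0639 without sham 3, 0.0841 with the choroid plexus covariate, 0.141 with sham 2 and 3 left out and 0.101 with the length trend removed. Cisd1, an iron-sulfur protein of the outer mitochondrial membrane and the most abundant of the mitochondrial list, had a log2 difference of -0.13 (adjusted p = 0.261), and Slc22a17, a lipocalin receptor and the most abundant of the uptake list, had one of -0.14 (adjusted p = 0.221). With the choroid plexus level in the fit, 9 genes of the 7 lists passed in place of 18. Over all genes the share that passed went from 28% to 12.1%. Without sham 3 alone 11 listed genes passed, when 19% of all genes did.

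**Figure D3:**
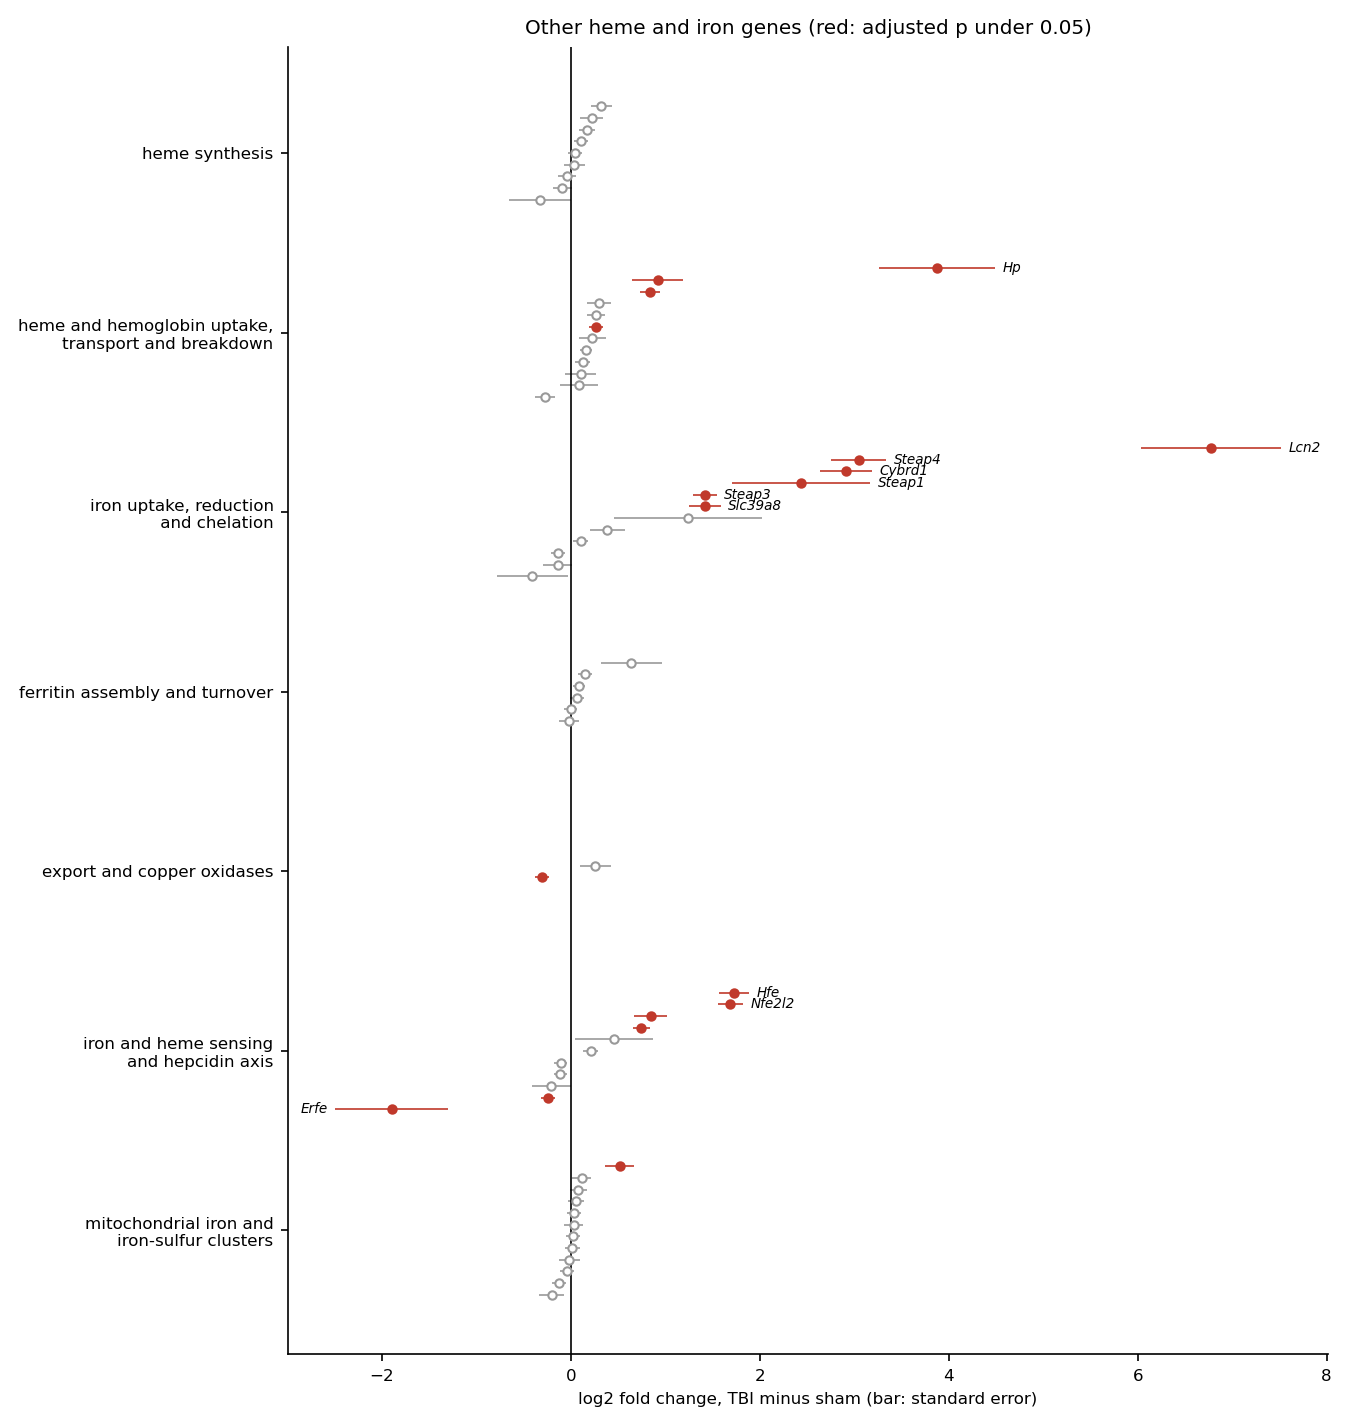
Log2 fold change between TBI and sham mice of the 64 other heme and iron genes tested, in 7 lists, with the standard error as a bar; red points passed an adjusted p-value of 0.05. Named points also changed at least 2-fold: 9 rises, with Lcn2 at 6.77 the largest, and 1 fall, Erfe at -1.89.

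The second comparison asks whether zileuton altered these genes in injured brain tissue. None of the 10 members passed an adjusted p-value of 0.05 in edgeR, and none passed an unadjusted p-value of 0.05 in edgeR or in DESeq2. Over all genes tested the same test called 0% at the adjusted and 6.83% at the unadjusted threshold. No alternative fit called a member at the adjusted threshold, DESeq2 included. The log2 differences of the members ran from -0.23 to 0.33, with a median of 0.011. A p-value above the threshold does not show that the groups were alike, and the intervals below give the differences that remain possible.

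Slc40a1 had the largest difference among the members. It measured 11.96, 14.7 and 17.7 CPM in vehicle A, B and C and 20.97, 17.0 and 17.8 in zileuton A, B and C. The groups overlapped, since vehicle C was above zileuton B, and the log2 difference of 0.33 had a 95% interval from -0.030 to 0.69 (edgeR, adjusted p = 0.713). Slc11a2 measured 39.8, 38.9 and 42.0 CPM in vehicle and 43.2, 43.8 and 45.4 in zileuton mice. It was the only member whose groups did not overlap in CPM, as was the case for 13.5% of all genes tested. In TPM, which also scales by transcript length, Slc40a1 and Tfrc were separate too, and higher with zileuton. Slc40a1 measured 6.61 to 9.14 TPM in vehicle and 9.69 to 11.95 in zileuton mice, and Tfrc 22.94 to 26.74 and 28.07 to 28.75. The share of all genes separate in TPM was not counted. For Slc11a2 the log2 difference was 0.14 (95% interval -0.030 to 0.30, edgeR, adjusted p = 0.714). Tfrc measured 64.85, 66.2 and 59.4 CPM in vehicle and 64.97, 73.6 and 72.2 in zileuton mice, with overlap between vehicle B and zileuton A (log2 difference 0.15, interval -0.036 to 0.33).

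Hmox1 measured 59.3, 59.5 and 59.8 CPM in vehicle A, B and C and 96.6, 44.6 and 37.8 in zileuton A, B and C. The vehicle mice were nearly equal, whereas zileuton A lay above and zileuton B and C below all of them. The log2 difference was 0.0033 (interval -0.70 to 0.71). Without zileuton A it was -0.53 with an adjusted p of 0.298. Zileuton A was also the highest zileuton library for Trf, Slc11a1, Fth1, Ftl1, Slc40a1 and Cp, and for the markers of activated microglia and macrophages, which summed to 1256, 1938 and 2658 CPM in the vehicle mice and 1514, 994 and 858 in the zileuton mice. The part of that library's cell content was not tested. At the unadjusted threshold, which 6.83% of all genes passed, all 4 globin markers tested were lower with zileuton. Sums of the red blood cell list were 214 to 338 CPM in vehicle and 188 to 204 in zileuton mice. Also lower were 2 of 6 monocyte markers, 1 of 7 of activated microglia and macrophages and 1 of 7 of neurons. Higher were 1 of 7 astrocyte and 1 of 6 endothelial markers. No marker passed the adjusted threshold.

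Slc11a1 measured 12.7, 17.5 and 28.9 CPM in vehicle and 25.6, 16.9 and 17.4 in zileuton mice (log2 difference 0.019, interval -0.65 to 0.69). Vehicle C and zileuton A were high and the groups overlapped fully. Ftl1 measured 687, 922 and 1178 CPM in vehicle and 996, 699 and 685 in zileuton mice (log2 difference -0.23, interval -0.72 to 0.26). Fth1 measured 1447, 1747 and 1937 CPM in vehicle and 1756, 1563 and 1571 in zileuton mice (log2 difference -0.07, interval -0.35 to 0.21). Both ferritin genes were lowest in vehicle A among the vehicle mice, and their groups overlapped. The ratio of Fth1 to Ftl1 counts was 2.11, 1.90 and 1.64 in vehicle and 1.76, 2.24 and 2.29 in zileuton mice, 1.11-fold higher on average (two-sided exact permutation test, p = 0.4). These ratios cannot be set against those of the 2018 batch, whose reads were counted in another way.

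Trf measured 526, 646 and 857 CPM in vehicle and 1000, 642 and 668 in zileuton mice (log2 difference 0.19, interval -0.31 to 0.69). Cp measured 29.5, 22.8 and 31.2 CPM in vehicle and 36.0, 23.2 and 20.8 in zileuton mice (log2 difference -0.06, interval -0.55 to 0.43). Hpx had 30, 26 and 8 counts in vehicle and 12, 28 and 15 in zileuton mice (log2 difference -0.19, interval -1.37 to 0.98). For these 3 genes the groups overlapped, and the intervals were wide next to the differences. In TPM, a unit scaled by transcript length as well as library size, Fth1 was again the most abundant member at 4162 ± 458 (SD, n = 3) in vehicle and 4200 ± 330 in zileuton mice. It was followed by Ftl1 at 2129 ± 483 and 1926 ± 461, Trf at 774 ± 159 and 953 ± 262, and Hmox1 at 75.4 ± 2.52 and 79.3 ± 44.2. Slc11a1 overlapped with Tfrc, and Slc11a2 with Cp, in both groups.

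**Figure D4:**
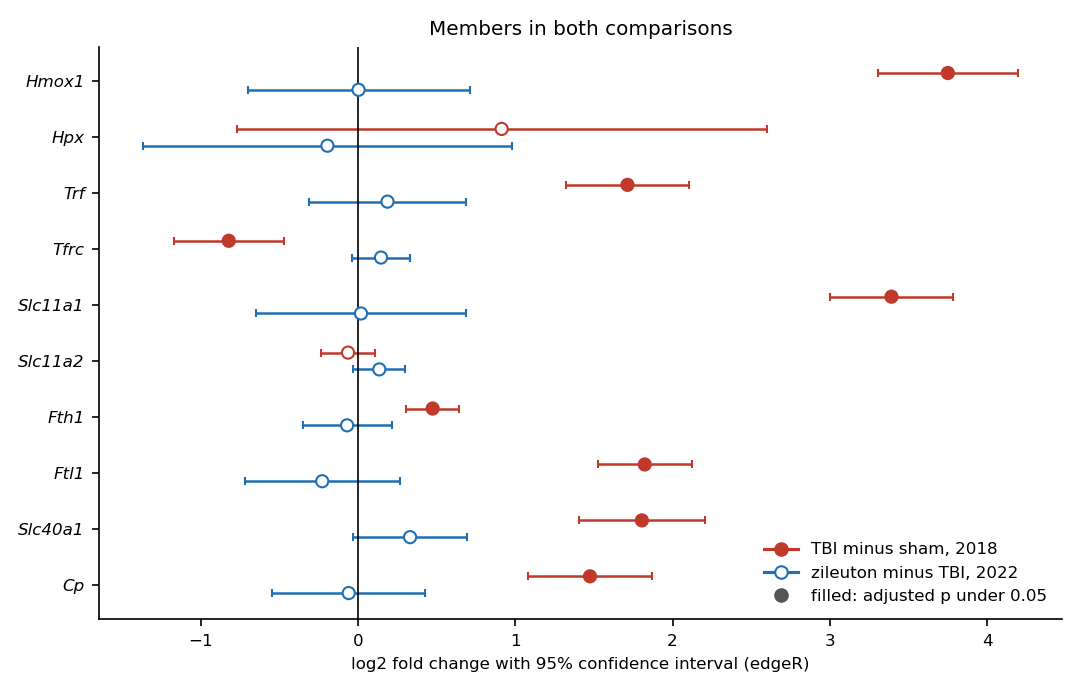
Log2 fold change of each member with its 95% confidence interval from edgeR, for TBI minus sham (red) and zileuton minus vehicle (blue); filled points passed an adjusted p-value of 0.05. In the first comparison 7 intervals lie above 0 and that of Tfrc below it, whereas all 10 intervals of the second include 0.

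Of the 61 other heme and iron genes tested between vehicle and zileuton mice none passed the adjusted threshold and 3 passed the unadjusted one. Flvcr2, a transporter of choline and reported importer of heme, measured 2.74, 3.34 and 3.96 CPM in vehicle and 5.49, 5.18 and 4.21 in zileuton mice (log2 difference 0.57, SE 0.198, adjusted p = 0.713). Blvra, a biliverdin reductase, measured 17.8, 17.5 and 19.2 CPM in vehicle and 16.7, 15.0 and 14.1 in zileuton mice (log2 difference -0.25, SE 0.103). Glrx5, a glutaredoxin of iron-sulfur cluster assembly, measured 17.7, 19.3 and 19.0 CPM in vehicle and 15.6, 14.4 and 15.6 in zileuton mice (log2 difference -0.29, SE 0.0935). In CPM the groups did not overlap for 10 of the 61 genes, these 3 among them, against 13.5% of all genes tested. At the unadjusted threshold, a share of 3 of 61 is under the 6.83% of all genes. The median log2 difference over the 61 genes was 0.015. Lcn2 measured 18.1, 29.8 and 40.9 CPM in vehicle and 43.8, 7.97 and 6.20 in zileuton mice, with zileuton A high as for Hmox1 (log2 difference -0.61, adjusted p = 0.837). Without zileuton A the number of these genes past the unadjusted threshold was 5, when 10.8% of all genes passed it. It was 1 without vehicle A (6.12% of all genes) or without zileuton B (3.9%), and 5 without vehicle C (5.78%).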

How the data were processed

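Per the labels, poly(A)-selected RNA was sequenced as read pairs. The authors deposited raw counts per gene and FPKM for the 2018 batch, and estimated counts and TPM for the 2022 batch. Of the estimated counts 13.7% were not whole, and they were rounded for the count tests. The submitters' notes name HISAT2, featureCounts, Subread, DESeq2 and GRCm39, without versions. The program behind the estimated counts, and whether strand was used, are not given in the sources used here.

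The main test was edgeR 4.0.16's quasi-likelihood test in R 4.3.3 (TMM factors; filterByExpr), adjusted by Benjamini-Hochberg over every gene tested. Alternatives were DESeq2 1.42.0 (size factors, Wald test), library totals alone, no count filter and an equal-variance test on FPKM or TPM. Others were removal of a length trend, a replicate block and leaving out each mouse. Fits with limma 3.58.1 used log2(value + 1) and log2(value + 0.1) of FPKM or TPM with a mean of at least 0.5. The fit on log2(value + 1) was also run without that filter. Symbols were found for 34808 of 35697 and 52081 of 55637 identifiers. Hjv was matched through an older symbol. Sequences came from GRCm38, so no coordinates were joined to the files. No libraries of a group agreed within sampling noise. All columns were used. The tests were tried on simulated data.

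Members, lists and rules were chosen with earlier results of these data known. Named were all members, listed genes that changed at least 2-fold in TBI at an adjusted p-value of 0.05 or passed an unadjusted 0.05 with zileuton, the most abundant gene of each list (by FPKM in sham), up to 3 abundant markers per cell type, and ferritin copies. Other listed genes, and Gfap and Cd68, were named after their values were seen. Some listed genes are not reported by name here. P-values of the gene tests weigh the difference between groups against the spread between mice, with 3 mice per group. In edgeR that spread is estimated with information from all genes tested.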

Additional observations from a re-analysis of the deposited data

How the results depend on the processing

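All 8 calls among the members between TBI and sham held without each mouse and under every other alternative but 2: 6 members passed with the equal-variance test on FPKM (Trf and Tfrc did not) and 7 with the choroid-rich libraries alone (Fth1 did not). Both alternatives that use choroid plexus markers were chosen after seeing the data. Of the other heme and iron genes 18 passed. The count was 10 with the equal-variance test on FPKM, 9 with the choroid plexus level as a covariate and 9 with the choroid-rich libraries alone, and 11 to 16 without 1 mouse. Over all genes 5479 passed, against 2625, 2359 and 1542 under those 3 alternatives. Between zileuton and vehicle 0 genes passed in edgeR, 28 in DESeq2, 4 with no count filter, and 4 and 3 with limma on log2(TPM + 1) and log2(TPM + 0.1). No alternative called a member or another heme and iron gene there. The members past an unadjusted 0.05 numbered 1 with no count filter, with each of the 3 limma fits and with the choroid plexus covariate (Slc40a1 in all 5), where 5.97%, 6.51%, 6.44%, 5.08% and 9% of all genes passed it. They numbered 2 with the equal-variance test on TPM (Tfrc and Slc11a2; 6.55% of all genes) and 0 to 2 without 1 mouse (3.9% to 10.8%). The other heme and iron genes past it numbered 1 to 5 without 1 mouse.

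Directions reversed only for differences that did not pass a test. For Pcbp1 between TBI and sham the log2 difference was 0.049 with library totals alone and with the equal-variance test on FPKM, 0.047, 0.048 and 0.047 with limma on log2(FPKM + 1), on log2(FPKM + 0.1) and without a filter, 0.00083 with the choroid plexus covariate, and -0.043 to 0.032 without 1 mouse. Between zileuton and vehicle, Hmox1 was at -0.061, -0.063 and -0.061 in the same limma fits on TPM, -0.11 with the choroid plexus covariate, -0.13 with a replicate block and -0.53 to 0.25 without 1 mouse. Fth1 was at 0.016 in each of those limma fits, 0.013 with the equal-variance test, 0.058 with the length trend removed and -0.18 to 0.028 without 1 mouse. Slc11a1 was at -0.0055 with the covariate, -0.13 in choroid-rich libraries and -0.21 to 0.40 without 1 mouse. Hpx and Cp were at 0.28 and 0.14 in choroid-rich libraries, and at -0.58 to 0.20 and -0.34 to 0.096 without 1 mouse. Trf was at -0.045 to 0.39 without 1 mouse. The cause was not tested.

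Sham and TBI mice of the same number did not deviate together (r = -0.023, -0.094 and -0.033 across genes), and no mouse correlated best with its own number. The numbers were therefore not taken as pairs. With a replicate block 8 members, 13 other heme and iron genes and 4337 genes in all passed. The columns of vehicle and zileuton mice share their numbers too, and these libraries did not deviate together either (r = -0.28, 0.063 and -0.28). With a replicate block by those numbers, chosen after seeing the data, 0 genes passed the adjusted threshold, and 0 members and 1 other heme and iron gene passed the unadjusted one (4.2% of all genes). With the choroid-rich libraries alone, a single sham mouse is assumed to vary like the TBI mice. Counts near 0 limit Hpx and Erfe. Sham levels of Lcn2, Hp and Steap1 were low as well, at means of 0.24, 0.21 and 0.54 CPM. Across the alternatives the log2 fold changes of Lcn2, Hp and Steap1 ran from 3.15 to 7.54, 1.29 to 4.29 and 1.14 to 4.15.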
